A study of Mus musculus with 9 samples.

Results

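The 29 genes described here encode the machinery that copies DNA in S phase. They were taken by gene symbol from the count table: Mcm2 to Mcm7, Mcm10, Pcna, Cdc6, Cdc45, Cdt1, Gins1, Gins2, Rrm1, Rrm2, Tyms, Ccne1, Ccne2, Cdca7, Chaf1a, Chaf1b, Uhrf1, Fen1, Pola1, Pole, Rfc3, Rfc4, Slbp and E2f1. All 29 were found, each once, among 54134 entries, and all 29 passed the filter on low counts, among 13810 genes that did.

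The libraries came from cells labelled HT22 (the titles) and HT-4 (the cell type), wild type, of a mouse hippocampal neuronal line. HT22 is an immortalised line whose cells divide in culture, and oxyhemoglobin stands in for the blood that neurons meet after a bleed around the brain. There were 3 groups of 3 libraries: untreated control cells, cells given oxyhemoglobin, the oxygenated blood pigment (Hb), and cells given oxyhemoglobin with an agent written NTR1 in the labels and NGR1 in the title (Hb+NTR1). No group had the agent alone, and neither dose nor time is given in the sources used here. Nothing in the labels ties the 3 libraries of a group to separate dishes or days. The p-values therefore speak of the spread among these libraries, which may be technical.

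Before a cell divides, the licensing factors Cdc6 and Cdt1 load a ring of 6 MCM proteins onto each origin of replication. Cyclin E kinase and other kinases then help to turn the ring into an active helicase by adding Cdc45 and the GINS complex. Polymerases held on DNA by the sliding clamp PCNA copy the strands, ribonucleotide reductase and thymidylate synthase supply the nucleotides, and histone chaperones repackage the new DNA. Many of these genes are known targets of the E2F transcription factors, which the RB protein restrains.

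Promoters of 6 of the genes are shown first. Mcm5, Mcm6 and Mcm7 are some of the ring genes Mcm2 to Mcm7, which were all called lower in Hb+NTR1 against control in the results below. Mcm2 and Mcm3 also had a promoter and are not shown. In Hb+NTR1 against control, Cdca7 had the largest fall of the genes described here and Slbp and Pcna the 2 largest rises. Each promoter shown runs 5′ to 3′ on the strand of the gene. It spans 250 bases before to 50 bases after a transcription start, as RefSeq gives it on GRCm38.p6. Capitals mark the letters that match an E2F motif, searched as TTTCCCGC, TTTGGCGC, TTTCGCGC or TTTGCCGC on both strands, with overlapping matches allowed. The intervals are chr8:75109259-75109558 (plus strand) for Mcm5, chr1:128359656-128359955 (minus) for Mcm6, chr5:138171834-138172133 (minus) for the first of 2 starts of Mcm7, chr2:72475969-72476268 (plus) for Cdca7, chr2:132253131-132253430 (minus) for Pcna and chr5:33652525-33652824 (minus) for Slbp.
Mcm5: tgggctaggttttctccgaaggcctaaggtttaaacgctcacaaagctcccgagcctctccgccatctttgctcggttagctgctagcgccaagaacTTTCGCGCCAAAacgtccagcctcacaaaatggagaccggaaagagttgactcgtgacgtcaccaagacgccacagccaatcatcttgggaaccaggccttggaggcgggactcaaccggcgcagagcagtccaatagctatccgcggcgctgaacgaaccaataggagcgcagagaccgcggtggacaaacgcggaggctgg
Mcm6: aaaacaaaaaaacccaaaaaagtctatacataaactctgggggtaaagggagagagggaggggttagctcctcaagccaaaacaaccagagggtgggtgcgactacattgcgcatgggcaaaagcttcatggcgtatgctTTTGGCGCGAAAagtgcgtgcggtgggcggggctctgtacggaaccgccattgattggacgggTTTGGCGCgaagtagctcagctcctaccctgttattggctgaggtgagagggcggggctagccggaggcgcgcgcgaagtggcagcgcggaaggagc
Mcm7: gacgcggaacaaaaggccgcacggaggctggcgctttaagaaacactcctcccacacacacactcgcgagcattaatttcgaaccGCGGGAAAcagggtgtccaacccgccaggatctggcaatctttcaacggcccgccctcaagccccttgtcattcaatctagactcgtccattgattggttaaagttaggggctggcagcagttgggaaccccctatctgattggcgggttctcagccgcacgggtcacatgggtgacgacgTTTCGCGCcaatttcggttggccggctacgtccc
Cdca7: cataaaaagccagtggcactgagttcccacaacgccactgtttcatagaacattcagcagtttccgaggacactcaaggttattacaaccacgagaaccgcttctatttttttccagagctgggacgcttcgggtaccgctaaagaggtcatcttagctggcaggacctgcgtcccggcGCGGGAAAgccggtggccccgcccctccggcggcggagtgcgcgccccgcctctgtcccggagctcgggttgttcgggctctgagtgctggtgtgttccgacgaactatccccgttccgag
Pcna: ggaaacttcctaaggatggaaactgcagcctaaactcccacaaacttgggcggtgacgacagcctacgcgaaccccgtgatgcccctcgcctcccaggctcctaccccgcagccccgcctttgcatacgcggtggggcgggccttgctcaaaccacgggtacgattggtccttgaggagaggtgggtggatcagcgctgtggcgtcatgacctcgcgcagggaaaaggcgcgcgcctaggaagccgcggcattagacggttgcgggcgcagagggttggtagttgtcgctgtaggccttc
Slbp: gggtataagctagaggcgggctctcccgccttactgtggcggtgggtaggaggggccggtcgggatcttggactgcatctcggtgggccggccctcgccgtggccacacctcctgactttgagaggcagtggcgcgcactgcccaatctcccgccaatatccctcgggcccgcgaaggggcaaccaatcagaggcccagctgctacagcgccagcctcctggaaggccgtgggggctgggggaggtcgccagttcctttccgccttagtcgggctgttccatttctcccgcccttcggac

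In Mcm6 the matches lie at -110 to -99, where 2 forms overlap on opposite strands, and at -47 to -40, counted from the start as base 1. In Mcm5 2 overlapping forms fill -153 to -142. Mcm7 has one match at -165 to -158 and another at 17 to 24, just after the start, and Cdca7 has one at -71 to -64. The windows of Pcna and Slbp hold none of the letters searched, which says only that these letters are not in this window. The windows shown are a choice, and they do not show how often a match goes with a fall. Mcm2, Rrm1 and Tyms were also called lower in Hb+NTR1 against control, and their windows, not shown, held no match. Counts over all the genes with a window are given below.

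Promoter windows were found for 24 of the 29 genes, and 10 of them, or 41.7% (95% exact binomial interval 22.1 to 63.4), held an E2F motif. The share was 33.85% among 65 other genes of the replication pathway that had a window. It was 2.61% over all 27025 genes with a RefSeq promoter of the same length, tested here or not. Among genes tested here, 449 held a match and 9100 did not. The 10 members with a match were Cdc6, Cdt1, Mcm3, Mcm5, Mcm6, Mcm7, Pola1, Rfc3, Uhrf1 and Cdca7. Of these, Uhrf1 and Mcm7 have 2 annotated starts each and held the motif at 1 of them. The windows of Cdc6, E2f1 and Mcm7 lay wholly inside the gene as GENCODE places it, as did the Uhrf1 window with the motif. For Cdc6, E2f1 and Mcm7, bases before the outermost GENCODE start were therefore not searched. Bases after the start were found in a transcript on the same strand for 18 of the 24. The CCAAT letters were in 62.5% of the members' promoters and 41.1% of all genes' promoters, and the GC box letters GGGCGG in 79.2% and 38.2%. With the same E2F forms shortened by their first T, 66.7% of the members, 56.9% of the other replication genes and 10.9% of all genes held a match.

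Total counts ran from 13415648 to 16893746 per library, and the 29 genes together took 0.429% to 0.469% of them. Levels are given as normalised CPM, counts scaled to the library total after TMM correction, for the 3 libraries of a group or as mean ± SD, n = 3. Fold changes are on the log2 scale, estimate ± SE, from edgeR's quasi-likelihood test over all 9 libraries, with Benjamini-Hochberg adjustment over the 13810 genes and a threshold of 0.05. A gene that passed is called higher or lower. Hb replicate 2 stood furthest from its group, its counts differing from theirs by a chi-square of 12.97 and 10.7 per gene's degree of freedom, beside 2.51 to 5.10 for all other pairs of replicates. Of 20 neuronal markers, 15 lay under 1 CPM in control, and Map2, Snap25, Slc17a6 and Gad1 had no count in any library. Their summed level was 197 to 205 CPM in control, 191 to 208 in Hb and 128 to 133 under Hb+NTR1. The 12 fibroblast markers summed to 14045 to 14955 CPM in control, 11308 to 12752 in Hb and 1308 to 1410.1 under Hb+NTR1. All 10 that could be tested were called lower in Hb+NTR1 against Hb, as were 4 of 5 neuronal markers tested, beside 31.6% of all genes tested. In Hb against control, 5 of these 10 fibroblast markers and 0 of the 5 neuronal ones were called lower, beside 1.77% of all genes. The 6 astrocyte markers went from 200 to 229 CPM in control and 115 to 138 in Hb to 8.63 to 10.0 in Hb+NTR1, with 5 of them under 1 CPM in control. The 7 microglial markers averaged 21.2 CPM in sum in control, 13.9 in Hb and 4.35 under Hb+NTR1. Of these, 6 lay under 1 CPM in control, and only 1 of the 7 could be tested. The 5 endothelial markers averaged 1.27, 1.26 and 3.75 CPM and the 6 erythroid markers 1.35, 1.52 and 1.36 CPM in the same order. In both lists 5 markers lay under 1 CPM in control. The part of these markers in the results below was not tested.

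In bulk samples such as these a smaller share of cells in S phase and less RNA per cell cannot be told apart.

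In cells given oxyhemoglobin alone, no replication gene of the 29 was called. None passed the threshold in Hb against control by edgeR, where 3.65% of all genes tested were called, 1.88% higher and 1.77% lower. At an unadjusted p under 0.05 there were 6 of the 29, beside 2243 of all 13810 genes tested, and by DESeq2 1 member passed and by limma voom 0. Control and Hb libraries did not overlap for 7 of the 29, beside 19.6% of all genes tested. The median log2 fold change of the 29 was -0.039, and the values ran from -0.25 to 0.22. The widest were Gins2, at -0.25 ± 0.0867 (adjusted p = 0.120), and E2f1, at 0.22 ± 0.0805 (adjusted p = 0.157).

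Rrm2, the small subunit of ribonucleotide reductase, came nearest to the threshold. It measured 188, 201 and 192 CPM in the control libraries, 164, 172 and 167 in Hb and 181, 188 and 195 under Hb+NTR1. All Hb libraries lay below all libraries of both other groups. The log2 fold change was -0.21 ± 0.0601 in Hb against control (edgeR adjusted p = 0.0551) and 0.16 ± 0.0602 in Hb+NTR1 against Hb (edgeR adjusted p = 0.0230). Both comparisons share the Hb libraries, so a low Hb level enters both. Rrm2 passed in Hb against control by DESeq2 (adjusted p = 0.0263), with the replicate block (0.0407), with the GC correction described below (0.00745) and without Hb replicate 2 (0.0105). Gins2 passed there without that library (adjusted p = 0.0288) and with the GC correction (0.0360).

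Hb+NTR1 cells differed from both other groups, with calls in both directions. In Hb+NTR1 against Hb, 7 members were called higher, 15 lower and 7 did not pass. That is 75.9% called, set against 62.3% of all genes tested, of which 30.7% were higher and 31.6% lower. In Hb+NTR1 against control, 7 were higher, 16 lower and 6 did not pass, or 79.3% called against 63.6% of all genes, 31.4% higher and 32.2% lower. The 2 comparisons share the Hb+NTR1 libraries. Libraries did not overlap for 23 members against Hb and 25 against control, beside 64.7% and 69.9% of all genes tested. Against control 1 member, Cdca7, was called at least 2-fold lower, as were 9.99% of all genes tested. The median log2 fold change of the members was -0.17 against Hb and -0.20 against control, where the median over all genes was -0.011 and -0.0042. Summed over the 29 genes, the level was 4749, 4780.1 and 4822 CPM in control, 4594, 4683 and 4651 in Hb and 4183, 4305 and 4260.4 under Hb+NTR1.

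**Figure D1:**
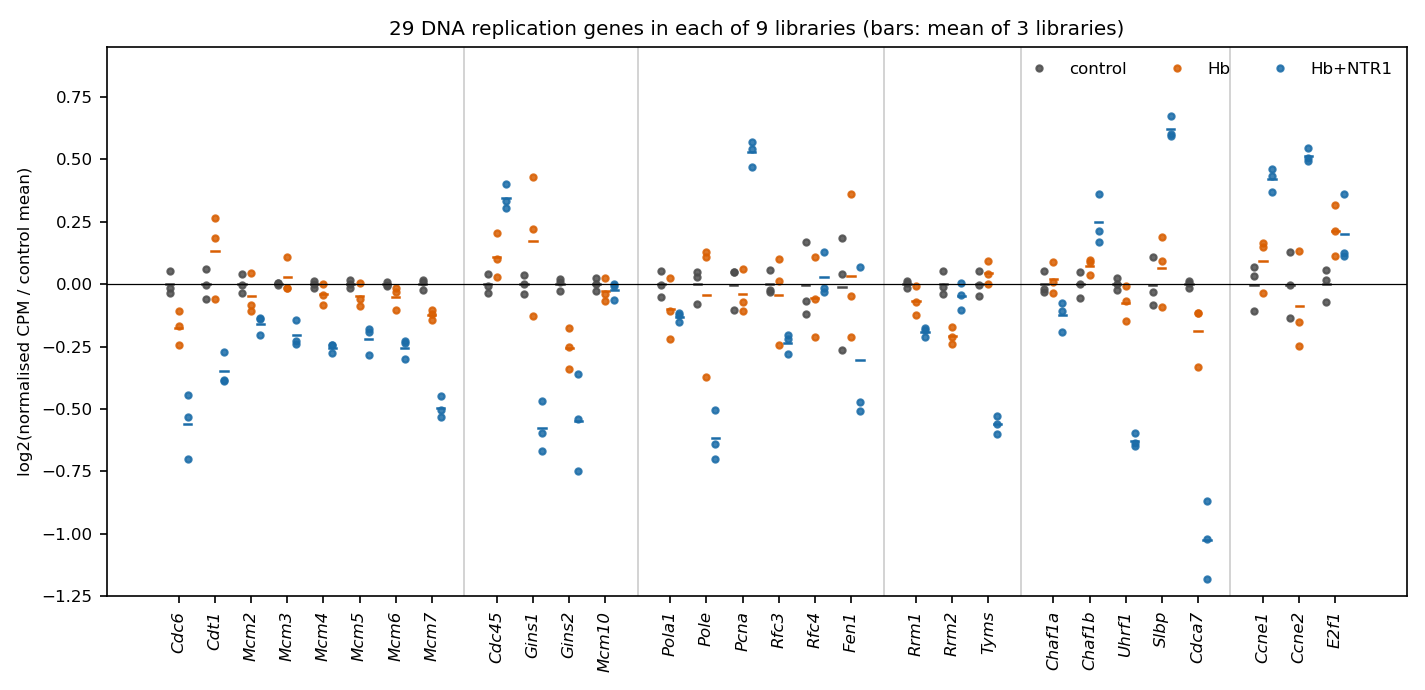
Normalised CPM of each of the 29 genes in each of 9 libraries, as log2 of the ratio to the control mean of that gene (points: libraries, short bars: mean of 3, grey lines: borders between the functional groups). The Hb points lie near the control points for most genes, while in Hb+NTR1 the points of Cdca7, Uhrf1 and Tyms lie below and those of Pcna, Slbp and Ccne2 above all control points.

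The genes that load the helicase at origins were all called lower in Hb+NTR1 against control. Of the 8, Cdc6, Cdt1 and Mcm2 to Mcm7, 7 were called lower against Hb and 8 against control, and none was higher, where 31.6% and 32.2% of all genes tested were called lower. After a correction for GC content and transcript length, chosen after seeing the data, Cdt1 and Mcm2 no longer passed against control. Cdc6 (ENSMUSG00000017499.15, chr11:98907801-98923940, plus strand), an ATPase that recruits the MCM ring to the origin, measured 99.5, 104 and 98.2 CPM in control, 89.7, 84.9 and 93.4 in Hb and 62.03, 69.6 and 74.01 under Hb+NTR1. The groups formed 3 separate steps with no shared values. Its log2 fold change was -0.38 ± 0.0733 against Hb (edgeR adjusted p = 8.46e-05) and -0.56 ± 0.0728 against control (edgeR adjusted p = 4.78e-07), and its step from control to Hb did not pass (adjusted p = 0.219). Cdt1, its partner in loading, went from 132 ± 5.45 CPM in control and 146 ± 16.6 in Hb to 104 ± 4.84 in Hb+NTR1, a log2 change of -0.49 ± 0.0748 against Hb that became -0.18 ± 0.0510 with that correction.

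Mcm7 had the largest estimated fall among the ring subunits, but not with the GC and length correction against Hb, where Mcm4 was at -0.35 ± 0.0434, Mcm6 at -0.32 ± 0.0458 and Mcm7 at -0.30 ± 0.0446. Uncorrected, Mcm7 went from 383 ± 5.36 CPM in control and 351 ± 4.69 in Hb to 271 ± 8.04 in Hb+NTR1, at -0.37 ± 0.0578 against Hb and -0.50 ± 0.0577 against control (edgeR adjusted p = 5.37e-06 and 7.34e-08). Of its exonic bases 12.6% overlap other annotated genes, so some reads there are uncertain. The estimates for the other ring subunits were -0.16 for Mcm2, -0.20 for Mcm3, -0.26 for Mcm4, -0.22 for Mcm5 and -0.26 for Mcm6 against control. Whether the subunits differed in their fall was not tested. Mcm2 did not pass against Hb (edgeR adjusted p = 0.114), although its Hb+NTR1 libraries all lay below the Hb libraries, and it passed without Hb replicate 2 (adjusted p = 0.0274). Its call against control ended without control replicate 1, control replicate 3 or Hb+NTR1 replicate 1 (adjusted p = 0.0579, 0.111 and 0.111) and with library totals alone (0.161). The Mcm5 call against Hb ended without Hb+NTR1 replicate 1 (adjusted p = 0.0997).

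Because the ring holds one copy of each subunit, their levels were also compared per kilobase of the principal transcript. In control the order was Mcm7 at 129 ± 1.81 CPM per kb, Mcm4 at 109 ± 0.973, Mcm6 at 108 ± 0.670, Mcm2 at 97.2 ± 2.58, Mcm3 at 93.9 ± 0.307 and Mcm5 at 73.6 ± 0.827. The libraries of the neighbours Mcm4 and Mcm6 overlapped. In Hb the order of Mcm7 at 119 ± 1.58, Mcm4 at 106 ± 3.06 and Mcm6 at 104 ± 3.38 was the same, with Mcm3 at 95.7 ± 4.75 next to Mcm2 at 94.1 ± 5.37 and Mcm5 at 71.3 ± 2.37. In Hb+NTR1 Mcm7 stood at 91.6 ± 2.72 CPM per kb, with libraries that overlapped those of Mcm4 at 91.5 ± 1.22 and Mcm6 at 90.4 ± 2.45. Mcm2 followed at 87.1 ± 2.33, Mcm3 at 81.6 ± 3.05 and Mcm5 at 63.3 ± 2.50. Down to Mcm3, each gene's Hb+NTR1 libraries overlapped those of its neighbour in that order, and Mcm5 lay apart as the lowest in each group. The order between genes depends on the length used, since reads were counted per gene and not per transcript. For Mcm6 the principal transcript has 2910 bases, the longest coding transcript 4355 and all annotated exons 4666. Mcm2 has 3371 bases in its principal transcript and 6956 over all exons. The order with other lengths was not worked out.

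**Figure D2:**
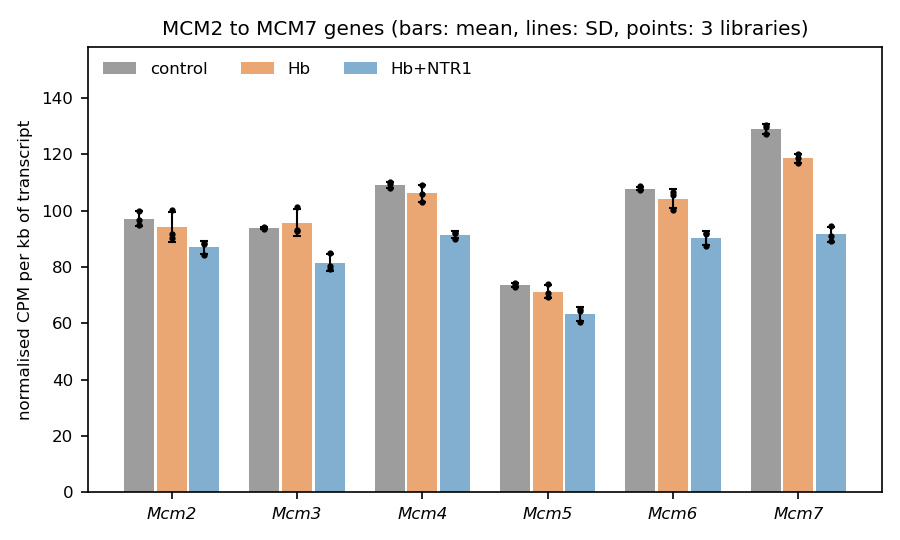
Levels of the genes for the 6 ring subunits in normalised CPM per kilobase of principal transcript (bars: mean of 3 libraries, lines: SD, points: libraries). With these lengths Mcm7 is highest in control and Hb and level with Mcm4 and Mcm6 in Hb+NTR1, and Mcm5 is lowest in all 3 groups. The order between genes depends on the transcript length used.

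Genes that turn the ring into a working helicase were mixed. Gins1, a subunit of the GINS complex, measured 28.2, 27.5 and 28.9 CPM in control, 25.9, 37.9 and 32.9 in Hb and 17.8, 20.4 and 18.7 under Hb+NTR1. The Hb+NTR1 libraries were lowest, and the Hb libraries spread on both sides of control. The log2 fold change was -0.77 ± 0.115 against Hb and -0.58 ± 0.116 against control (edgeR adjusted p = 3.59e-06 and 1.43e-04). Gins2, another subunit, measured 57.6, 59.04 and 59.5 CPM in control, 46.4, 52.01 and 49.3 in Hb and 34.95, 45.8 and 40.4 under Hb+NTR1. Its groups did not overlap, with Hb+NTR1 lowest, at -0.54 ± 0.0878 against control (edgeR adjusted p = 1.01e-05). The step of Gins2 from control to Hb did not pass (edgeR adjusted p = 0.120). Of the annotated exonic bases of Gins2, 67.3% lie across from Gse1 on the opposite strand, so its counts are uncertain. Its call against Hb ended without Hb+NTR1 replicate 1 (adjusted p = 0.0833).

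Cdc45, the third component of the active helicase, rose instead, from 56.99 ± 1.52 CPM in control and 61.6 ± 3.77 in Hb to 72.5 ± 2.56 in Hb+NTR1. Its log2 fold change was 0.23 ± 0.0720 against Hb and 0.35 ± 0.0720 against control (edgeR adjusted p = 0.00690 and 2.02e-04). Mcm10, which helps the helicase start, had 80.6 ± 1.46 CPM in control, 79.1 ± 2.64 in Hb and 79.3 ± 1.998 under Hb+NTR1, and passed in none of the 3 comparisons.

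At the fork itself the clamp gene rose while a polymerase gene fell. Pcna (ENSMUSG00000027342.14, chr2:132249162-132253314, minus strand) encodes the sliding clamp that tethers polymerases and repair enzymes to DNA. It measured 278, 308 and 309 CPM in control, 277, 311 and 284 in Hb and 413, 443 and 435 under Hb+NTR1. Every Hb+NTR1 library exceeded every other library, and control and Hb overlapped. Pcna rose 1.48-fold against Hb, at 0.57 ± 0.0650 on the log2 scale (edgeR adjusted p = 6.27e-08), and 1.44-fold against control. The pseudogene Pcna-ps2 had 2045 counts in the control libraries, 2161 in Hb and 3243 in Hb+NTR1, beside 13565, 12288 and 18578 of Pcna, so reads could be shared between them.

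Pole, the catalytic subunit of the leading-strand polymerase, measured 198, 196 and 182 CPM in control, 207, 149 and 210.0 in Hb and 135, 118 and 123 under Hb+NTR1. Hb replicate 2 lay far below the other Hb libraries but still above the Hb+NTR1 libraries. The log2 fold change was -0.59 ± 0.101 against Hb and -0.61 ± 0.101 against control (edgeR adjusted p = 6.42e-05 and 3.80e-05). Pola1, the polymerase that lays down primers, did not pass in any comparison, at -0.13 ± 0.0660 against control (adjusted p = 0.0904), although it passed there without Hb replicate 1 or Hb replicate 2 (adjusted p = 0.0484 and 0.0391), in a fit of the 6 compared libraries alone (0.0127) and, at -0.38 ± 0.0495, with the GC and length correction (9.36e-08). Of the clamp loader subunits, Rfc3 went from 78.2 ± 9.48 CPM in Hb to 68.1 ± 1.83 in Hb+NTR1 (edgeR adjusted p = 0.0331), a call that ended in 8 alternatives, among them without Hb replicate 2, Hb replicate 3 or any 1 Hb+NTR1 library (adjusted p = 0.0576 to 0.15), and Rfc4 passed in none of the 3 comparisons. Fen1, the nuclease that trims Okazaki fragments, was listed at only 2.92 ± 0.451 CPM in control, 3.04 ± 0.644 in Hb and 2.41 ± 0.567 under Hb+NTR1. Of its exonic bases 84.2% overlap genes on the opposite strand, Tmem258 and Gm10143, and how such reads were assigned is not stated, so its level is uncertain.

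Nucleotide genes also parted. Tyms, thymidylate synthase, measured 81.5, 76.2 and 78.4 CPM in control, 83.98, 80.9 and 78.7 in Hb and 54.6, 53.4 and 51.9 under Hb+NTR1. All Hb+NTR1 libraries lay far below the others, which overlapped. It fell 1.52-fold against Hb (log2 fold change -0.61 ± 0.0691, edgeR adjusted p = 5.66e-08). Rrm1, the large subunit of ribonucleotide reductase, went from 438 ± 4.34 CPM in control to 383 ± 4.82 in Hb+NTR1 (-0.19 ± 0.0583, edgeR adjusted p = 0.00645), and against Hb it did not pass (adjusted p = 0.0662) except without Hb replicate 1 (adjusted p = 0.0278) and with the GC correction. Rrm2 rose against Hb as given above and did not pass against control, at -0.05 ± 0.0599 (adjusted p = 0.517). Its call against Hb ended in 6 alternatives, among them without Hb replicate 1, Hb+NTR1 replicate 2 or Hb+NTR1 replicate 3 (adjusted p = 0.0613, 0.0519 and 0.0995).

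Chromatin genes held the largest changes of both signs among the members in Hb+NTR1 against control. Cdca7 (ENSMUSG00000055612.15, chr2:72476159-72486893, plus strand), a zinc finger protein that works with the remodeler Hells in DNA methylation, measured 75.8, 74.9 and 76.3 CPM in control, 60.03, 69.8 and 69.8 in Hb and 41.4, 37.3 and 33.4 under Hb+NTR1. The groups formed 3 separate steps, but the step from control to Hb did not pass (edgeR adjusted p = 0.248). Cdca7 fell 1.78-fold against Hb and 2.03-fold against control, at -0.83 ± 0.0850 and -1.02 ± 0.0843 on the log2 scale (edgeR adjusted p = 9.40e-09 and 2.45e-10). Uhrf1, which brings the methyltransferase Dnmt1 to newly copied DNA, measured 355, 361 and 367 CPM in control, 359, 326 and 345 in Hb and 232, 239 and 231 under Hb+NTR1. The Hb+NTR1 libraries were all lower than the other 6, at -0.55 ± 0.0597 against Hb and -0.63 ± 0.0596 against control (edgeR adjusted p = 2.27e-08 and 2.67e-09).

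Slbp, which binds the stem-loop that ends replication-dependent histone mRNAs, rose. It measured 78.7, 75.8 and 86.7 CPM in control, 75.4, 85.8 and 91.6 in Hb and 128, 121 and 122 under Hb+NTR1. All Hb+NTR1 libraries lay above the other 6, at 0.56 ± 0.0747 against Hb and 0.62 ± 0.0747 against control (edgeR adjusted p = 7.17e-07 and 1.14e-07). The chaperone CAF-1, which places histones behind the fork, is built from both Chaf1 products, whose genes were called in opposite directions against Hb. Chaf1a went from 157 ± 6.82 to 142 ± 5.91 CPM (-0.14 ± 0.0626, edgeR adjusted p = 0.0483) and Chaf1b from 92.3 ± 2.08 to 104 ± 7.39 CPM (0.18 ± 0.0680, edgeR adjusted p = 0.0275). The Chaf1a call ended in 15 of 18 alternatives, including without any 1 library other than Hb replicate 2 (adjusted p = 0.0529 to 0.211). The Chaf1b call ended in 4, namely without Hb replicate 1 or Hb+NTR1 replicate 2 (adjusted p = 0.0763 and 0.173), with no filter on low counts (0.0902) and in a fit of the 6 compared libraries alone (0.0566). For Chaf1a, 52.5% of the exonic bases overlap Ubxn6 on the opposite strand.

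Both cyclin E genes, which encode activators of the kinase Cdk2 at the start of S phase, were higher with Hb+NTR1. Ccne2 measured 35.3, 42.4 and 38.7 CPM in control, 32.6, 42.6 and 34.9 in Hb and 56.6, 54.6 and 55.003 under Hb+NTR1. The Hb+NTR1 libraries were close together and above all others, at 0.59 ± 0.0940 against Hb and 0.52 ± 0.0932 against control (edgeR adjusted p = 7.56e-06 and 4.05e-05). Its transcript had a GC content of 36.3%, and with the GC and length correction the values were 0.32 ± 0.0862 and 0.24 ± 0.0851 (adjusted p = 0.00206 and 0.0172). Of its exonic bases 17.4% overlap Ints8 on the opposite strand. Ccne1 went from 29.1 ± 1.86 CPM in control and 31.1 ± 2.36 in Hb to 38.9 ± 1.29 (0.33 ± 0.0884 against Hb, edgeR adjusted p = 0.00267). E2f1, a transcription factor that activates many genes of this group, had 60.3 ± 2.73 CPM in control, 70.04 ± 4.95 in Hb and 69.5 ± 6.99 under Hb+NTR1. It passed against control only (0.20 ± 0.0804, edgeR adjusted p = 0.0302). Without control replicate 1, control replicate 2 or Hb+NTR1 replicate 2 that call ended, at adjusted p = 0.0624, 0.129 and 0.233.

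**Figure D3:**
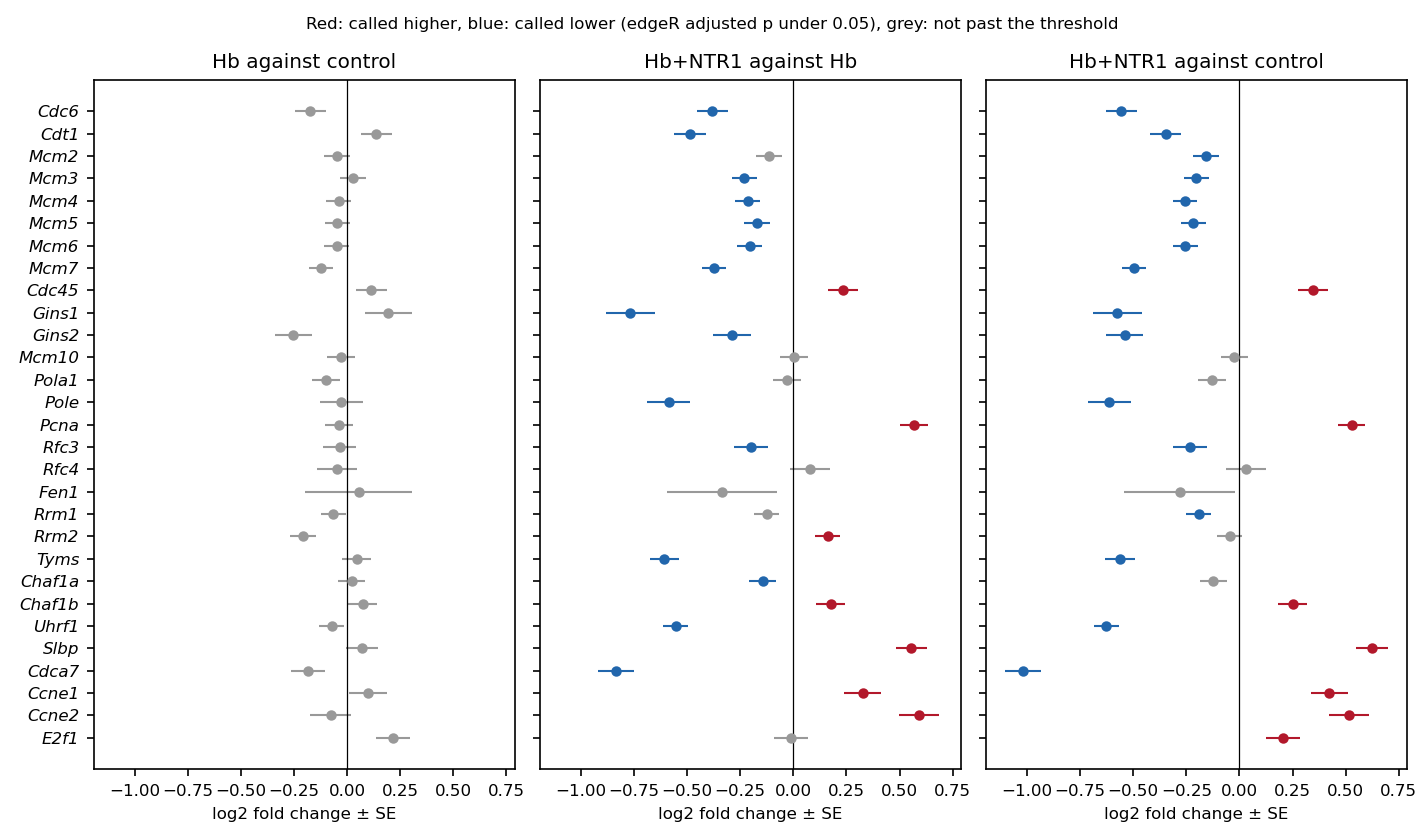
Log2 fold change ± SE of the 29 genes in the 3 comparisons (red: called higher, blue: called lower, grey: not past an edgeR adjusted p of 0.05). No gene is called in Hb against control, while 7 are red in each comparison of Hb+NTR1, with 15 blue against Hb and 16 blue against control.

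The E2F letters shown above were set beside the calls. Of the 10 members with a match, 9 were called lower and 0 higher in Hb+NTR1 against control, with a median log2 fold change of -0.30, and the remaining gene was Pola1. Of the 14 with a promoter and no match, 6 were higher and 3 lower, with a median of 0.0037. E2f1 was among the 6, and its window lay inside the gene, so its upstream bases were not searched. The genes with a match include 4 ring subunits and both licensing factors. Among other replication genes, 22 with a match had 8 higher and 5 lower, or 4 higher and 6 lower with the GC and length correction. The 42 without had 13 higher and 16 lower, or 13 higher and 19 lower with that correction. Over all genes tested, 37.9% of 449 with a match and 32.5% of 9100 without were called lower. With the shorter letters, 16 members held a match, of which 1 was higher and 10 lower, and 8 did not, of which 5 were higher and 2 lower. Among other replication genes, 37 with the shorter letters had 13 higher and 10 lower, and 27 without had 8 higher and 11 lower. Over all genes tested, 33.0% of 1873 with the shorter letters and 32.7% of 7676 without were called lower. No test was made of these counts, since the members and the motif were set side by side after calls were known.

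**Figure D4:**
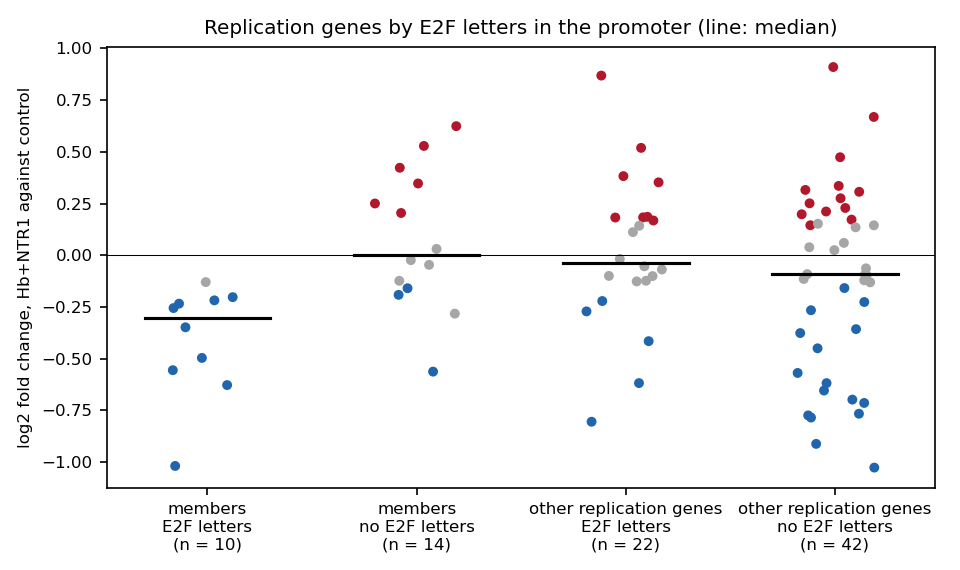
Log2 fold change in Hb+NTR1 against control for members and other replication genes, split by E2F letters in the RefSeq promoter (points: genes, red and blue: called higher and lower, grey: not past the threshold, line: median). The 10 members with the letters all lie below 0, at a median of -0.30, while the 22 other replication genes with the letters lie on both sides of 0.

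Transcript base composition moved with the fold changes across all genes. In Hb+NTR1 against control the median log2 fold change was 0.25 for 871 genes with GC content under 40% and -0.28 for 2366 genes over 56%. Over the 29 members Pearson's r between GC content and log2 fold change was -0.25, and over 81 other replication genes it was -0.51. Over the 13647 genes tested that had a GC value it was -0.17. These are correlations across genes, which share libraries and are not independent replicates. With the correction for GC content and transcript length several member calls and values changed. Mcm2 and Cdt1 no longer passed against control, at -0.05 ± 0.0445 and -0.10 ± 0.0511 (adjusted p = 0.348 and 0.0913). Chaf1a and Rrm2 no longer passed against Hb, at -0.002 ± 0.0495 and 0.09 ± 0.0471 (adjusted p = 0.976 and 0.104). Pola1 and Rrm1 passed against Hb at -0.29 ± 0.0499 and -0.30 ± 0.0452 (adjusted p = 9.57e-06 and 1.09e-06), and E2f1 passed as higher at 0.25 ± 0.0654 (adjusted p = 0.00130). Against control, Pola1 passed at -0.38 ± 0.0495 and Rrm2 at -0.11 ± 0.0466 (adjusted p = 9.36e-08 and 0.0434). Values that kept their call but moved by over 1.5 times were those of Ccne2 in both comparisons and Cdt1 against Hb, as given above, together with Mcm4 and Mcm6 against Hb. Against control Rrm1 moved from -0.19 to -0.35 ± 0.0451 and E2f1 from 0.20 to 0.42 ± 0.0658, and against Hb Chaf1b moved from 0.18 to 0.30 ± 0.0553. Cdca7 stood at -1.03 ± 0.0735, Uhrf1 at -0.57 ± 0.0445, Pcna at 0.51 ± 0.0477 and Slbp at 0.60 ± 0.0595 against control. The part of base composition in the fold changes was not tested further.

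**Figure D5:**
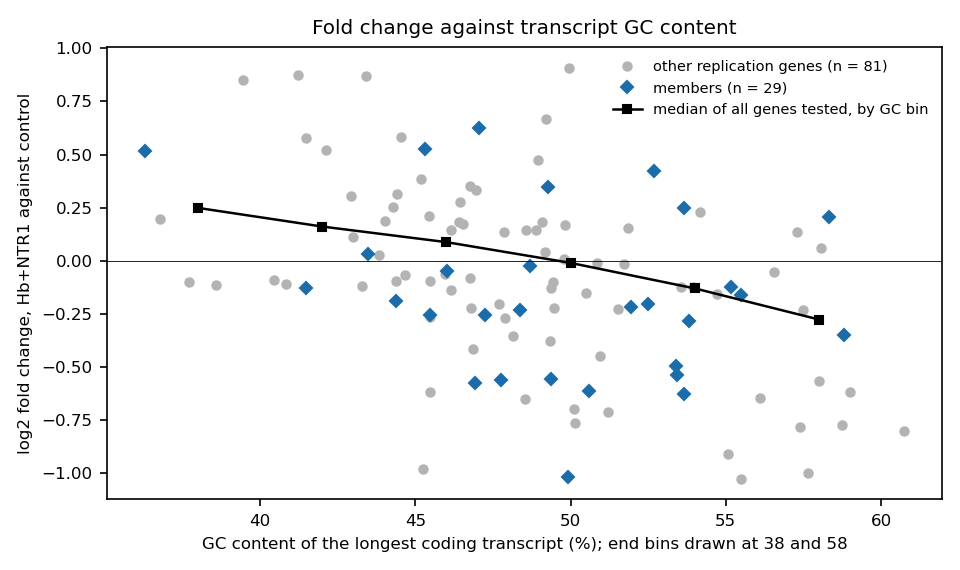
Log2 fold change in Hb+NTR1 against control by GC content of the longest coding transcript, for the 29 members (diamonds), 81 other replication genes (grey points) and the median of all genes tested in 6 bins of GC content (squares). The median falls from 0.25 to -0.28 across the bins, and the members scatter on both sides of that line.

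The rest of the replication pathway, 82 genes of which 81 could be tested, was split as well. In Hb+NTR1 against Hb, 21 were higher and 28 lower, at a median log2 fold change of -0.026. That is 60.5% called, beside 62.3% of all genes tested, 30.7% higher and 31.6% lower. With the GC and length correction 20 were higher and 35 lower, beside 4481 and 4317 of all genes tested. Against control 25 were higher and 28 lower, and with that correction 21 and 33. By list, in Hb+NTR1 against Hb without the correction, 41.7% of the origin genes and 61.5% of the helicase and fork genes were called. For the polymerase genes it was 61.9%. The share was 90% for nucleotide supply genes, 40% for the further chromatin genes and 66.7% for the E2F, RB and S phase kinase genes. Among 12 origin recognition and licensing genes, 4 were higher (Mcm9, Orc1, Mcm8 and Dbf4) and 1 lower (Mcmbp), beside 0 higher and 7 lower among the 8 loading genes of the members. Among 13 helicase activation and fork protection genes, 2 were higher (Donson and Clspn) and 6 lower, led by Recql4 at -0.99 ± 0.0805, Timeless, Chtf18 and Ticrr. Among 21 polymerase, clamp loader and lagging strand genes, 6 were higher, led by Pole4 at 0.82 ± 0.0841, Dna2, Rfc1 and Rnaseh2a. There 7 were lower, led by Rnaseh2b at -1.10 ± 0.123, Pold1, Pold2 and Rpa2. Of 10 nucleotide supply genes, 3 were higher, among them Rrm2b and Dck, and 6 lower, led by Tk1 at -0.97 ± 0.0687, Ung, Dtymk and Dctpp1. Of 10 further chromatin genes, Atad2 and Asf1b were higher and Cdca7l and Tonsl lower.

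Of 15 tested E2F, RB and S phase kinase genes, 4 were higher, with the RB family genes Rb1 (0.68 ± 0.113), Rbl1 and Rbl2 and the ligase gene Dtl, and 6 were lower, led by E2f8 (-0.997 ± 0.0877), E2f4, Tfdp1 and E2f2. Hb against control gave 4 calls among the 81, or 4.94%, beside 3.65% of all genes tested. Among these E2f2, E2f8 and Tonsl were higher at edgeR adjusted p = 0.0131, 0.0462 and 0.0454. Leaving out Hb replicate 1, control replicate 2 or control replicate 3 brought the count of 4 to 0, and leaving out Hb replicate 2 raised it to 7. It was 1 when any other single library was left out. In Hb+NTR1 against Hb, which shares the Hb libraries, the log2 fold changes of these 3 genes were -0.59, -0.997 and -0.50.

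Genes that brake or follow S phase were read beside the members. Of 7 CDK inhibitors 4 could be tested, and 3 were higher in Hb+NTR1 against Hb, where 30.7% of all genes tested were higher. Cdkn1a, which blocks cyclin E kinase, measured 108 ± 6.17 CPM in Hb and 182 ± 16.5 under Hb+NTR1 (0.75 ± 0.0735, edgeR adjusted p = 4.66e-09), and Cdkn1b and Cdkn2d were also higher. Cdkn2c did not pass, at -0.042. Cdkn1a was already higher in Hb than in control (0.43 ± 0.0752, edgeR adjusted p = 8.94e-04). Cdkn1c, Cdkn2a and Cdkn2b had no count in any library, which allows up to 0.181 to 0.223 CPM by counting error alone. Of 20 mitotic genes, 2 were higher (Bub1 and Kif11) and 8 lower in Hb+NTR1 against Hb. That is 50% called, beside 62.3% of all genes tested. The lower genes were led by Ccnb2 at -1.21 ± 0.112, Ube2c, Cdc20 and Plk1. The proliferation marker Mki67 had 995 ± 20.4 CPM in control, 937 ± 130.5 in Hb and 889.6 ± 27.5 under Hb+NTR1 and did not pass in any comparison, nor did Top2a.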

How the data were processed

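The 9 libraries (3 groups of 3) were made from poly(A)-selected mRNA. Per the submitters' processing notes, the build was GRCm38 and the tools included HTSeq 0.10.0, HISAT2 2.1.0 and bcl2fastq 2.19.1.403. Neither the annotation release, the strand setting nor the treatment of reads shared by several genes is stated in those notes or the labels. The deposited table holds raw counts per symbol, not normalised by the authors. It has 54232 entries, of which 98 exact duplicates were dropped. Columns whose names begin in N were taken as Hb+NTR1 because the authors' comparison table of that group holds N and control columns only. That deposited table has 691 genes with a log2 fold change and a p-value by the authors, and 0 of the 29 genes is in it.

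Counts were fitted in R 4.3.3 with edgeR 4.0.16 (filterByExpr, minimum count 10, TMM, robust quasi-likelihood, 1 term for group, two-sided). The fit was also run on simulated data in which few genes were changed, in Hb only. That run does not bear on comparisons in which most genes were called. Standard errors were taken as the absolute log2 fold change over the root of F. Alternatives were other scalings and filters, DESeq2 1.42.0, limma 3.58.1 voom, only the 6 libraries compared, replicate number as a block, each library left out, and, added after seeing the data, a loess correction for GC content and length. Lengths and GC content came from GENCODE M21 on GRCm38, and 98.8% of genes tested had a value. Promoters came from RefSeq on GRCm38.p6.

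The 29 members and all gene lists were chosen with earlier results of these data known. Values in every library are given for the 10 members of largest fold change in Hb+NTR1 against control, and for Rrm2, added after its values were seen. Of other lists, up to 4 called genes per direction in Hb+NTR1 against Hb are named, and 1 listed gene is not reported here by name. Cdkn1a in Hb against control, Mki67, Top2a and small counts were also named after their values were seen.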

Additional observations from a re-analysis of the deposited data

How the results depend on the processing

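Of the 22 members called in Hb+NTR1 against Hb, 16 kept their call and direction in all 18 alternatives, and of the 23 against control, 19 did. Those that did not were Mcm5, Gins2, Rfc3, Rrm2, Chaf1a and Chaf1b against Hb and Cdt1, Mcm2, Rfc3 and E2f1 against control. The value of E2f1 in Hb+NTR1 against Hb turned from -0.012 to 0.25 with the GC and length correction, and was then called. The median of the members in Hb against control was -0.039 and moved to 9.44e-05 with library totals alone, which raised the median of all genes there from 0 to 0.039, and that in Hb+NTR1 against control from -0.20 to -0.139. With library totals alone 65.8% of the calls in Hb against control were higher, against 51.4% with TMM. In Hb against control the count of called members was 1 with DESeq2, 1 with the replicate block and 2 with the GC and length correction, and 0 to 2 with each library left out. The count of other replication genes called there was 4, and 1 with only the 6 libraries compared, 7 with the GC and length correction and 0 to 7 with each library left out. All genes called there numbered 504, and 1027 with the GC and length correction and 285 to 1125 with each library left out. The median of the members with each library left out ran from -0.0491 to -0.00757 in Hb against control and from -0.187 to -0.134 in Hb+NTR1 against Hb. The share of members' promoters with an E2F match was 41.7%, and 66.7% with the shorter letters. Correlations of the deviations of same-numbered libraries ran from -0.049 to 0.095, and those of differently numbered libraries from -0.116 to 0.139. With 3 libraries per group, whether equal numbers share a batch cannot be told from these values. With the replicate block 21 members were called in Hb+NTR1 against Hb and 23 against control. All genes called in Hb against control then numbered 645. Fen1, at about 3 CPM, had the widest error of the members.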
